A study of Mus musculus with 2 samples.

Results

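The small leucine-rich proteoglycans (SLRPs) examined here were the products of 10 genes, namely decorin (Dcn), lumican (Lum), biglycan (Bgn), fibromodulin (Fmod), keratocan (Kera), Prelp, osteoglycin (Ogn), asporin (Aspn), podocan (Podn) and chondroadherin (Chad). They were picked by matching these symbols in the feature list that both count matrices share, and all 10 were found among 28001 features. In the cells kept for analysis the 10 genes held 1.31% of all transcripts counted in 1 library and 2.25% in the other, and Dcn alone stood at rank 8 and rank 4 of all features by total count. In both libraries, and among the 7 populations gated here, Fmod, Kera and Chad were highest in tenocytes, and Lum and Podn were lower in tenocytes than in fibroblasts. Aspn was the 1 SLRP gene of 10 past 2-fold higher in pericytes than in fibroblasts in both. That count is near the share of all genes that were, 12.2% and 10.3%.

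Both libraries were made from tdTomato+ cells sorted from skeletal muscle of Hic1CreERT2/CreERT2;Rosa26LSLtdTomato/tdTomato mice of the C57BL/6J strain, with 1 library per group. In E10-P56, tamoxifen (TAM, 7.5 mg) was given by gavage to the pregnant dam at embryonic day (E)10 and muscle was taken at postnatal day (P)56; the methods add progesterone to that gavage, delivery by caesarean section and fostering by CD1 dams. In the adult pulse, mice of 8 weeks received 5 daily injections of 2.5 mg TAM, and although the labels give P56 for its collection too, the study's text takes this library from earlier work with a later collection. By the methods given for adult muscle, tibialis anterior muscles from P56 hindlimbs were pooled and target cells were sorted a second time after the first sort. Whether this also holds for the adult pulse library is not stated there. Neither library can be divided by animal.

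All of these mice were homozygous for the CreERT2 allele of Hic1, from which the Hic1 locus drives the recombinase, so a cell could carry tdTomato when it, or a cell it descended from, expressed Hic1 while TAM was active. Cells without that history were not sorted. The labelling time, the software version and possibly the kit and the age at collection differed between the libraries together, and these cannot be told apart in any difference between them.

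SLRPs are secreted proteins whose core of leucine-rich repeats binds collagen fibrils, and many carry chondroitin, dermatan or keratan sulphate chains. In tendon, decorin, biglycan, fibromodulin and lumican are known for setting the diameter and spacing of fibrils, and several members also bind growth factors or receptors of innate immunity. By sequence they are grouped into classes: Dcn, Bgn and Aspn form class I, Fmod, Lum, Kera and Prelp class II, Ogn belongs to class III, and Chad and Podn to the non-canonical classes.

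In all, 67460919 unique molecular identifiers (UMIs, each standing for 1 captured transcript) were counted over 8236 barcodes of E10-P56, and 69153173 over 9195 barcodes of the adult pulse. After leaving out barcodes with under 1500 UMIs or over 10% mitochondrial UMIs, 6087 and 8567 cells remained, with medians of 7648 and 7344 UMIs, and 95.9% and 99.1% of them held a tdTomato UMI. The libraries share 15 barcodes. A cell was given to a population when it had UMIs of enough of that population's marker genes, none of which is an SLRP, and the names used below mean no more than that.

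This gave 206 tenocytes in E10-P56 and 491 for the adult pulse, 4210 and 6991 fibroblasts, and 124 and 33 perineurial cells. In the same order there were 26 and 64 cells of endoneurial type, 280 and 233 pericytes and 184 and 44 smooth muscle cell progenitors (SMCPs). The SMCP name is the study's, and the gate took mural cells with any 3 of Dlk1, Adra2a, Rgs16, Rgs4, Ifitm1 and Thy1. E10-P56 also gave 139 vascular smooth muscle cells (VSMCs) and 64 Schwann cells. Adult pulse VSMCs and Schwann cells and E10-P56 endothelial cells numbered under 20 and are not described. Some gate genes are given as a description, since the gates select for them: the tendon factor Scx stood at 6554 UMIs per 1000000 in E10-P56 tenocytes against 7.56 in fibroblasts, Rgs5 at 14385 in pericytes and Myh11 at 6939 in VSMCs. Scx was lower in adult pulse tenocytes, at 856. E10-P56 Schwann cells held only 159 tdTomato UMIs per 1000000, where every other E10-P56 population named here had a level of at least 1121.

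Levels are given in CPM, the UMIs of a gene per 1000000 UMIs of a population, with exact 95% Poisson intervals in brackets; ratios and shares have exact conditional and exact Clopper-Pearson intervals. All of these cover counting error only. With 1 library per group there is no replicate, so no difference was tested, and a gene is called past 2-fold when its log2 ratio, after adding 5 CPM to both levels, was beyond 1 in either direction and the pair of populations held at least 50 of its UMIs. The share of all genes past 2-fold is given beside the count for the SLRPs as the background to read that count against. Counts come from the 3′ ends of transcripts and are not scaled by length, and levels are compared for 1 gene across cells.

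**Figure D1:**
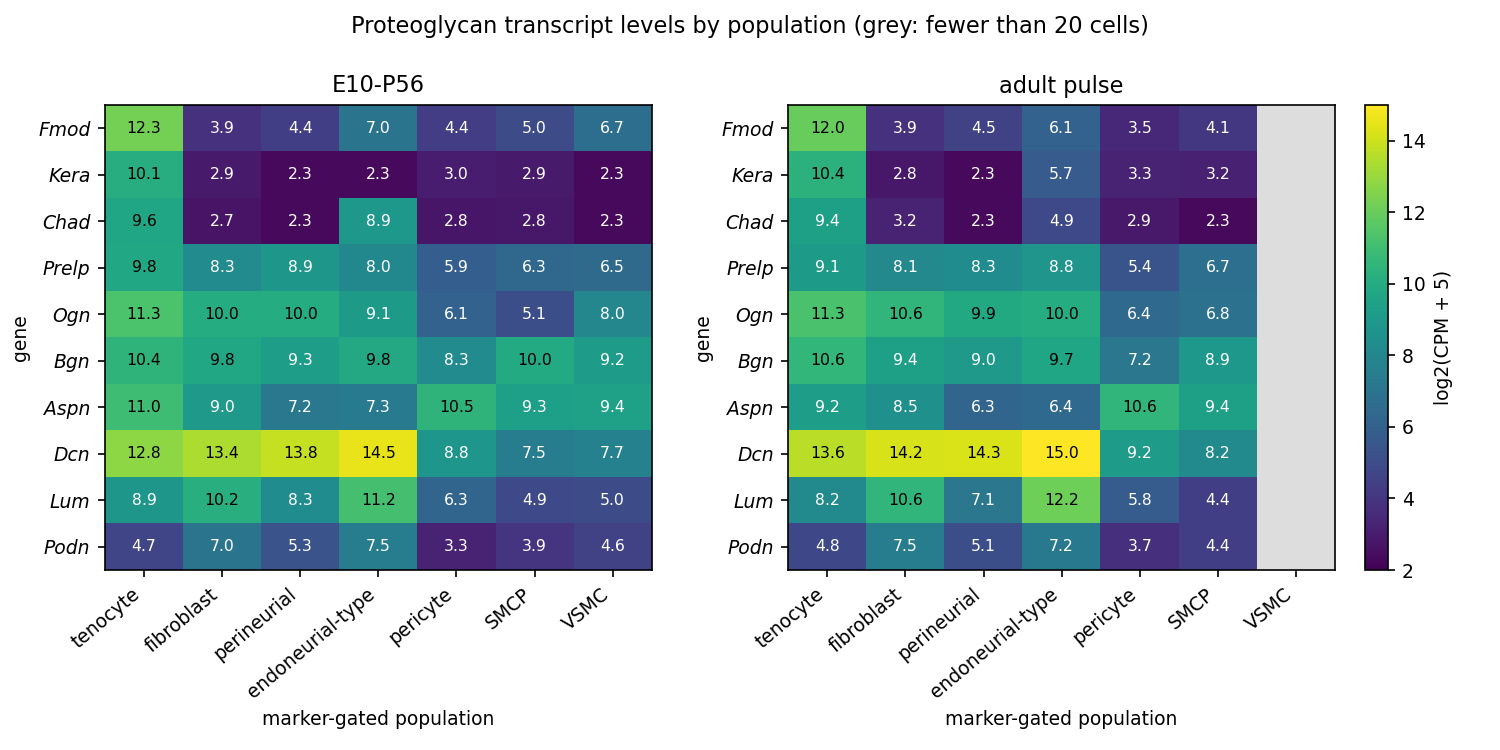
Levels of the 10 SLRP genes, as log2 of CPM plus 5 (colour and number), in 7 marker-gated populations (columns) of E10-P56 (left) and the adult pulse (right); grey marks a population with under 20 cells. Fmod, Kera and Chad are bright in the tenocyte column, and Dcn in every column but the 3 mural ones. Aspn is brightest in the tenocyte column on the left and in the pericyte column on the right.

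Across the 7 main populations, tenocytes had the highest level of 7 SLRP genes in E10-P56 (Bgn, Fmod, Kera, Prelp, Ogn, Aspn and Chad) and of 6 in the adult pulse, where Aspn was highest in pericytes instead. The share of all genes highest in tenocytes was not counted, so these counts stand without a background. Dcn and Lum were highest in cells of endoneurial type in both libraries. Podn was highest in cells of endoneurial type in E10-P56, at 171 (111 to 252) CPM, but its interval overlapped that of fibroblasts, at 122 (119 to 126); in the adult pulse the order was the reverse, at 173 (169.8 to 177) in fibroblasts and 147 (113 to 189) in cells of endoneurial type, again with overlapping intervals. Summed over the 10 genes, SLRP transcripts made up 2.13% of tenocyte UMIs in E10-P56 and 2.42% in those of the adult pulse, 1.49% and 2.32% of fibroblast UMIs, and 0.237% and 0.241% of pericyte UMIs. Dcn gave 72.7% and 80.6% of the SLRP transcripts of fibroblasts but 33.7% and 52.7% of those of tenocytes.

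Tenocytes, the cells that make tendon collagen, were set against fibroblasts of the same library first. In E10-P56, 6 of the 10 SLRP genes were past 2-fold higher in tenocytes (Fmod, Kera, Chad, Prelp, Ogn and Aspn), where 6.58% of all genes were, and 2 were past 2-fold lower (Lum and Podn), where 6.77% of all genes were. In the adult pulse 4 were higher (Fmod, Kera, Chad and Bgn), against 4.91% of all genes, and the same 2, Lum and Podn, were lower, against 7.43%. The median log2 ratio of the 10 genes was 1.37 in E10-P56 and 0.85 for the adult pulse, beside 0.05 and -0.07 over all genes with enough UMIs.

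Fmod, whose product guides the growth and cross-linking of collagen fibrils, stood at 4928 (4797 to 5061) CPM in E10-P56 tenocytes and 9.44 (8.58 to 10.4) in fibroblasts, a level 522-fold (474 to 576) higher. For the adult pulse it was 4029 (3963 to 4097) in tenocytes and 9.71 (8.92 to 10.5) in fibroblasts, 415-fold (382 to 452) higher. After each cell was thinned to 1500 UMIs, 95.1% and 91% of tenocytes still had an Fmod UMI (100.0% and 99.4% unthinned). Nearly every tenocyte therefore held the transcript. The 1.9% and 1.3% of fibroblasts with an Fmod UMI (5.61% and 4.33% unthinned) lay within the intervals of other cell types, 1.56% (0.0396 to 8.4%) of E10-P56 Schwann cells and 4.44% (0.543 to 15.1%) of adult pulse endothelial cells (4.69% and 6.67% unthinned), which rest on 1 of 64 and 2 of 45 cells. The fibroblast share was thus not distinguishable from that of these cells at this depth. Single fibroblasts reached 5307 and 3922 CPM of Fmod, above the median tenocyte at 4424 and 3259, and the part of free RNA in the fibroblast share was not tested. The median depths were 8936.5 UMIs per fibroblast and 4875 per Schwann cell in E10-P56, and 7780 per fibroblast and 2853 per endothelial cell in the adult pulse.

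Kera, best known from the corneal stroma, was 1103 (1041 to 1167) CPM in E10-P56 tenocytes and 2.61 (2.16 to 3.11) in fibroblasts. The adult pulse gave 1320.5 (1282 to 1359) and 2.12 (1.76 to 2.52). The tenocyte level was 423-fold (351 to 514) and 624-fold (522 to 752) higher in turn. Unlike Fmod, Kera was found in a part of the tenocytes, with a UMI in 51.9% and 59.9% of thinned cells (63.1% and 74.9% unthinned). Over single E10-P56 tenocytes, the Kera level ran from 0 to 7360 CPM with a median of 649.9, and over adult pulse tenocytes from 0 to 8312 with a median of 982.

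Chad, a cartilage matrix protein that binds collagen and integrins, was 781 (729 to 835) and 660.4 (633 to 688) CPM in E10-P56 and adult pulse tenocytes. Fibroblasts held 1.45 (1.13 to 1.84) and 4.5 (3.98 to 5.08). Chad was thus 537-fold (419 to 699) and 147-fold (129 to 167) higher in tenocytes. It was present in the fewest tenocytes of these 3 genes, with a UMI in 30.1% and 32.6% of thinned cells (39.3% and 40.3% unthinned), and the median single tenocyte had none in either library. Of thinned E10-P56 tenocytes with a Kera UMI, 23.4% (15.7 to 32.5%) also had a Chad UMI, and of those without, 37.4% (27.9 to 47.7%) did. The adult pulse gave 31.3% and 34.5%, so in both libraries Kera-positive tenocytes were not more often Chad-positive.

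The gate also let through some tenocytes with UMIs of the cartilage genes Acan or Col2a1, 48 in E10-P56 and 98 for the adult pulse. Without them, a setting chosen after the data were seen, 6 SLRP genes were past 2-fold higher and 2 lower in E10-P56 tenocytes than in fibroblasts, against 6.71% and 7.25% of all genes, and 4 were higher and 2 lower in the adult pulse, against 4.75% and 7.45%. The Chad level of tenocytes was then 666 (610.0 to 726) and 582 (554 to 612) CPM. With populations taken from clusters made without the SLRP genes, the Chad level of E10-P56 tenocytes was lower still, at 497 CPM. The part of the Acan or Col2a1 cells in the Chad level beyond these values was not tested. Chad was higher than in tenocytes, at 1520.5 (1405 to 1643) and 809 (748 to 874) CPM, in the cells of the cluster with the highest Acan level, of which 25 of 58 in E10-P56 and 14 of 73 in the adult pulse were gated as tenocytes.

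The stretches upstream of Fmod and Chad are shown as examples of genes highest in tenocytes among the gated populations. Bgn, Kera, Prelp and Ogn were highest there in both libraries too, and their stretches are not shown. That of Aspn is shown because it was also high in mural cells. RefSeq promoter windows on GRCm38.p6 were matched for 8 of the 10 genes; Dcn and Lum had no entry. Each sequence is the 250 bases before the annotated start, 5′ to 3′ on the plus strand, with matches to the E-box CANNTG in capitals. An E-box is the short motif that basic helix-loop-helix factors such as Scx are known to bind.
Fmod, chr1:134037004-134037253: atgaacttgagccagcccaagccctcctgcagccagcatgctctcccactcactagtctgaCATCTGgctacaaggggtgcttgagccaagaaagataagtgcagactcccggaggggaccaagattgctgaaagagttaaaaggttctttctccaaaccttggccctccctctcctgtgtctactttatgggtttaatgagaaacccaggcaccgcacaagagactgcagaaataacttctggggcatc
Chad, chr11:94564797-94565046: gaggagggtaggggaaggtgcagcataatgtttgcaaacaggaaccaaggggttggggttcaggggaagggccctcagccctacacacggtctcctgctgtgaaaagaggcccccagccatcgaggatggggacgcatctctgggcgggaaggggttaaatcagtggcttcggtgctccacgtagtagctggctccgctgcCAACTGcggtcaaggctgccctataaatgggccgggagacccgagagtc
Aspn, chr13:49544193-49544442: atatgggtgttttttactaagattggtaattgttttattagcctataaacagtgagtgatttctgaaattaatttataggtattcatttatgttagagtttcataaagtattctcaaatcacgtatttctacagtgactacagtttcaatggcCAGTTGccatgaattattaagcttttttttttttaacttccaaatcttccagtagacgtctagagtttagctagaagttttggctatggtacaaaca
Each of the 3 windows held 1 E-box, which read CATCTG before Fmod, CAACTG before Chad and CAGTTG before Aspn. An E-box was present for 6 of the 8 matched genes and in 66.2% of 32851 promoter windows of the same length, searched on both strands. The matched genes without an E-box were Kera and Prelp, both among those highest in tenocytes. The narrower form CAGATG, of which CATCTG is the reverse complement, was present for 2 of the 8 (Fmod and Podn) and in 14.4% of all windows. TATAAA was present for 3 (Chad, Aspn and Ogn) and in 12.4% of all windows, and the CArG box, the serum response factor motif of smooth muscle genes, for 0 of the 8 and in 1.47% of all windows. These are matches of letters, not bound sites.

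Ogn, which codes for osteoglycin and is known to affect collagen fibril thickness, was 2535 (2441 to 2631) CPM in E10-P56 tenocytes and 1045 (1036 to 1054) in fibroblasts, 2.43-fold (2.33 to 2.52) higher. The adult pulse gave 2449.9 (2398 to 2503) and 1503 (1493 to 1513), 1.63-fold (1.59 to 1.67) higher and within 2-fold. Most cells of both kinds held it, with thinned shares of 86.4% and 85.5% in tenocytes and 66.2% and 77.7% in fibroblasts (unthinned 94.7%, 97.8%, 90.6% and 95%).

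Prelp, which anchors basement membranes to collagen, was 865 (811 to 922) in E10-P56 tenocytes and 308 (303 to 313) in fibroblasts, 2.8-fold (2.62 to 3.0) higher. In the adult pulse it was 545 (520.4 to 570.0) and 272 (268 to 277), a ratio of 2.0 (1.91 to 2.1) that was just short of the limit once the pseudocount was added. Bgn, the closest relative of decorin, was 1387 (1318 to 1459) and 881 (873 to 889.6) in E10-P56 and 1558 (1517 to 1600.4) and 659 (652 to 666) for the adult pulse. It was 1.57-fold (1.49 to 1.66) higher in tenocytes in the former and 2.36-fold (2.3 to 2.43) in the latter, so it was past the limit in the adult pulse alone. Whether the tenocyte ratio of these genes differs between the libraries was not tested.

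Aspn, a class I protein with an aspartate stretch that binds calcium, was 2008 (1925 to 2094) CPM in E10-P56 tenocytes and 518 (512 to 525) in fibroblasts, 3.87-fold (3.71 to 4.05) higher. The adult pulse gave 596 (570.2 to 622) and 361 (356 to 366), 1.65-fold (1.58 to 1.73) higher. A thinned Aspn UMI was present in 72.3% of E10-P56 tenocytes but 38.9% of adult pulse tenocytes (84% and 63.1% unthinned).

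Dcn, Lum and Podn went the other way. Dcn, the most studied collagen-binding SLRP, was 7174 (7016 to 7335) in E10-P56 tenocytes and 10846 (10816 to 10875) in fibroblasts, 1.51-fold (1.48 to 1.55) lower in tenocytes, and 12773 (12654 to 12893) and 18707 (18672 to 18742) in the adult pulse, 1.46-fold (1.45 to 1.48) lower. Both ratios were within 2-fold, and 95.6% and 98% of thinned tenocytes had a Dcn UMI (99% and 100.0% unthinned). Lum, the class II relative of Fmod that competes with it for collagen, was 472 (432 to 515) and 1177 (1168 to 1187) in E10-P56, 2.49-fold (2.29 to 2.72) lower in tenocytes, and 290.3 (273 to 309) and 1509 (1499 to 1519) in the adult pulse, 5.2-fold (4.88 to 5.54) lower. Fmod and Lum thus took opposite sides of this comparison in both libraries. Podn, known for restraining smooth muscle growth, was 21 (13.3 to 31.6) and 122 (119 to 126) in E10-P56, 5.81-fold (3.87 to 9.18) lower, and 23 (18.2 to 28.7) and 173 (169.8 to 177) in the adult pulse, 7.53-fold (6.03 to 9.51) lower. Tenocytes also held fewer fibroblast markers, a median of 2 of 7 per cell against 7 in fibroblasts in both libraries, and the part of free fibroblast RNA in their Lum and Podn counts was not tested.

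**Figure D2:**
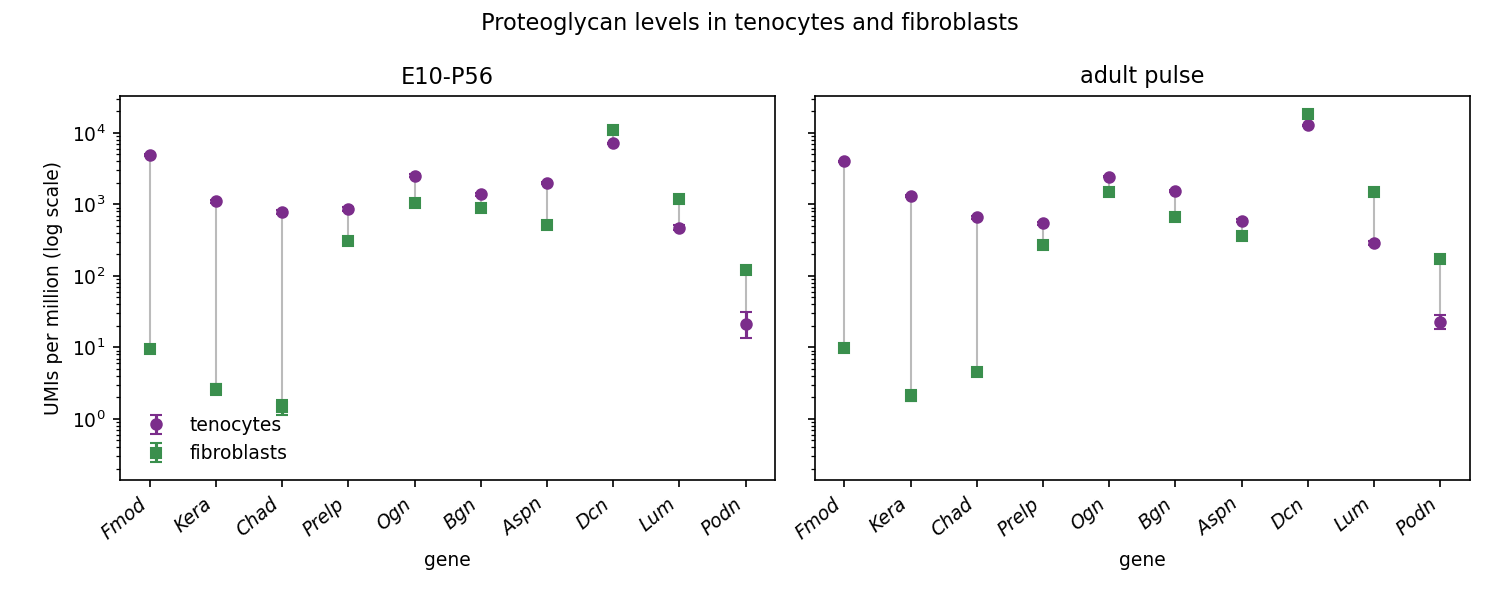
Levels of the 10 SLRP genes in tenocytes (circles) and fibroblasts (squares), in CPM on a log axis, for E10-P56 (left) and the adult pulse (right); bars are exact 95% Poisson intervals and grey lines join the pair. Fmod, Kera and Chad are over 100-fold higher in tenocytes, while Dcn, Lum and Podn are higher in fibroblasts in both libraries.

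Tenocytes with a UMI of Col22a1, a collagen of the myotendinous junction, were set against those without: 72 against 134 cells in E10-P56 and 282 against 209 for the adult pulse. Cells with a Col22a1 UMI were deeper, with medians of 5481.5 and 4216 UMIs in E10-P56 and 7106 and 5607 for the adult pulse. In E10-P56 only Chad of 9 SLRP genes with enough UMIs was past 2-fold between them, and 5.02% of all genes were. In the adult pulse 5 of 10 were past 2-fold, all lower in Col22a1+ cells (Chad, Prelp, Podn, Fmod and Dcn), and 6.71% of all genes were.

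Chad was the gene past 2-fold lower in Col22a1+ tenocytes in both libraries, at 284 (235 to 339) against 1094 (1017 to 1177) CPM in E10-P56 and 230.4 (211 to 251) against 1411 (1346 to 1478) for the adult pulse. The differences were 3.86-fold (3.18 to 4.72) and 6.12-fold (5.54 to 6.77). Shares of thinned cells were lower too, 11.1% (4.92 to 20.7%) against 40.3% (31.9 to 49.1%) and 18.1% (13.8 to 23.1%) against 52.2% (45.2 to 59.1%). Without thinning they were 20.8% against 49.3% and 25.2% against 60.8%, so the shallower cells had the higher share either way.

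Prelp stood out in the adult pulse, with 270.3 (249 to 293) in Col22a1+ cells and 1024 (968 to 1081) in the others, 3.79-fold (3.43 to 4.18) lower. In E10-P56 the same levels were 856 (769.9 to 949) and 870.4 (801 to 944), with a ratio of 0.983. Fmod, Dcn and Podn were 2.81-fold (2.71 to 2.91), 2.22-fold (2.18 to 2.26) and 4.0-fold (2.43 to 6.75) lower in adult pulse Col22a1+ cells. In E10-P56 the ratios of Fmod and Dcn were 0.925 and 0.852, and Podn rested on 23 UMIs in all. Kera and Bgn were within 2-fold in both libraries, Kera with ratios of 1.52 and 1.06 and Bgn with 1.01 and 1.04, so the 2 genes did not share the pattern of Chad.

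**Figure D3:**
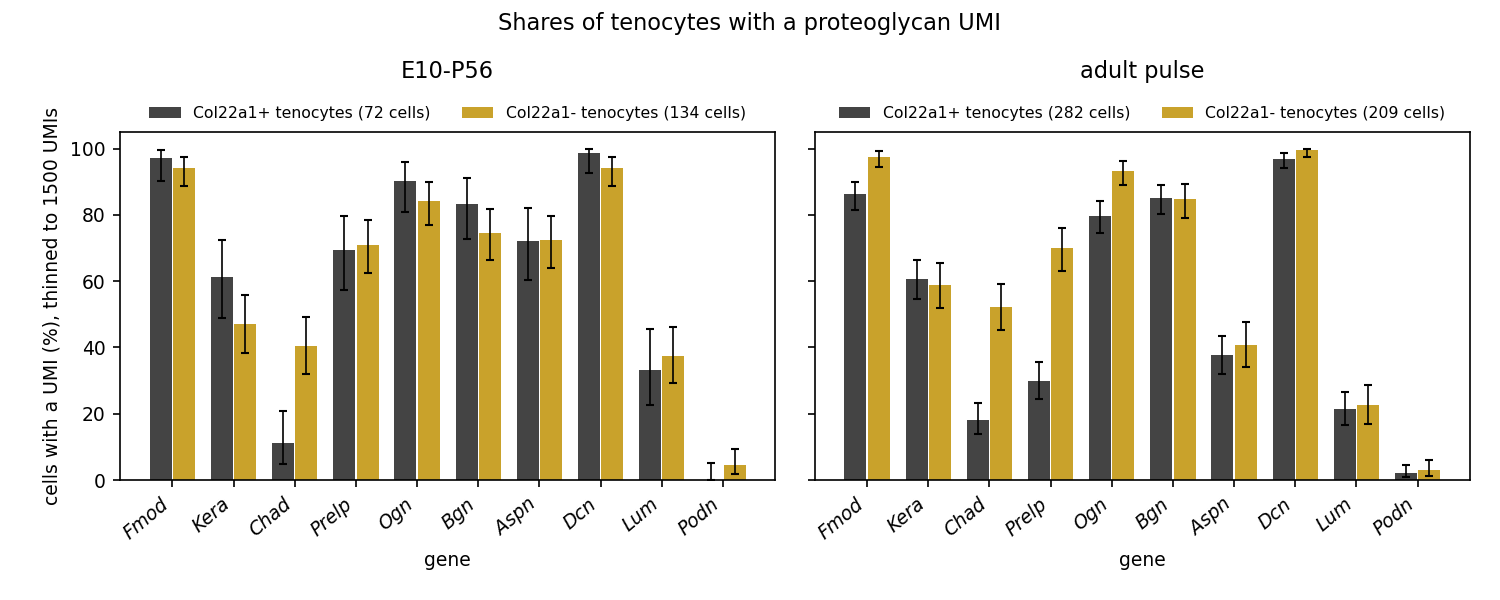
Share of tenocytes with at least 1 UMI of each SLRP gene after thinning to 1500 UMIs per cell, for cells with (dark) and without (yellow) a Col22a1 UMI in E10-P56 (left) and the adult pulse (right); bars start at 0% and error bars are exact 95% Clopper-Pearson intervals. The Chad bar of Col22a1+ cells is the lower one in both panels, and in the adult pulse so is the Prelp bar.

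Fibroblasts were divided by markers of subsets, and the levels of some SLRP genes differed between those subsets. Cells with the Pi16-type genes (519 in E10-P56, 723 in the adult pulse) were set against cells with the Col15a1-type genes (829 and 2414). Of 8 SLRP genes with enough UMIs, 3 were past 2-fold in E10-P56, all higher in Col15a1-type cells (Lum, Bgn and Podn), against 8.12% of all genes. In the adult pulse 5 of 8 were, with Dcn, Lum, Bgn and Podn higher and Aspn lower in Col15a1-type cells, against 7.93% of all genes. SLRP transcripts made up 1.35% and 1.53% of the UMIs of Pi16-type cells and 2.17% and 3.25% of those of Col15a1-type cells.

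Bgn was 373 (359 to 387) CPM in Pi16-type and 1232 (1206 to 1257) in Col15a1-type cells of E10-P56, and 227 (215 to 239.6) and 1009 (995 to 1023) in the adult pulse. It was 3.3-fold (3.16 to 3.44) and 4.44-fold (4.2 to 4.7) higher in Col15a1-type cells. Podn gave a like picture, 66.4 (60.6 to 72.5) and 292 (280.1 to 305) in E10-P56 and 60.8 (54.7 to 67.4) and 279 (272 to 287) for the adult pulse. Its ratios were 4.4-fold (3.99 to 4.87) and 4.6-fold (4.13 to 5.13). Both genes were thus over 3 times as high in Col15a1-type cells of either library. The study's introduction already lists Bgn and Podn beside Col15a1 among genes expressed by the fibroblast group that it matches to the Col15a1 profile. The work it cites there includes the earlier source of the adult pulse library, so the side taken by Bgn and Podn was known beforehand.

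Lum was 782 (762 to 802) and 1686 (1657 to 1716) in E10-P56, 2.16-fold (2.09 to 2.22) higher in Col15a1-type cells, and 459 (442 to 477) and 2608 (2586 to 2631) in the adult pulse, 5.68-fold (5.46 to 5.9) higher. Dcn, present in nearly every fibroblast, was 10287 (10214 to 10360.3) and 16154 (16063 to 16246) in E10-P56 and 12205 (12116 to 12294) and 26237 (26166 to 26309) for the adult pulse, 1.57-fold (1.56 to 1.58) and 2.15-fold (2.13 to 2.17) higher in Col15a1-type cells. These genes differed between the same subsets in the same direction in both libraries. Prelp was 1.24 and 1.98 times the Pi16-type level and Ogn 1.13 and 1.11 times, all within 2-fold.

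Aspn did not keep a side. It was 412 (397 to 427) in Pi16-type and 499.7 (484 to 516) in Col15a1-type cells of E10-P56, 1.21-fold (1.16 to 1.27) higher in the latter. The adult pulse gave 580.0 (561 to 599.7) and 227 (221 to 234), 2.55-fold (2.44 to 2.67) lower in the latter. This difference between the libraries was not tested, and different clusters of the joint map held these cells: Pi16-type cells lay in a cluster of 1378 E10-P56 and 33 adult pulse cells and in one of 32 and 1322, and Col15a1-type cells in clusters of 1237 and 37, 16 and 1503, and 19 and 971.

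The other subsets filled in the range. Apoe-type fibroblasts, 258 in E10-P56 and 65 for the adult pulse, had the highest Lum level of any subset in E10-P56, at 2154 (2107 to 2201), and 1782 (1687 to 1880.4) in the adult pulse, where Col15a1-type cells were higher. Cd55-type fibroblasts, 207 and 530 cells, resembled Pi16-type cells in low Bgn, at 394 (367 to 423) and 144 (133 to 155), and low Podn, at 61.5 (51 to 73.5) and 66.7 (59.5 to 74.6). Both subsets were thus low in 2 of the genes that marked Col15a1-type cells.

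Clu-type fibroblasts, which were gated with Clu, Meox1, Mgp and Comp, numbered 91 and 146. Fibroblasts that passed no subset gate, 1433 and 1922, served as their reference, and these cells could still hold some subset markers. Of 9 SLRP genes with enough UMIs, 2 were past 2-fold higher in E10-P56 (Kera and Aspn), against 3.45% of all genes in either direction, and 1 in the adult pulse (Bgn), against 4.20%. Bgn was 1661 (1579.9 to 1745) in Clu-type and 915 (897 to 932) in other E10-P56 fibroblasts and 1413 (1343 to 1485) and 641 (628 to 655) in the adult pulse, 1.82-fold (1.72 to 1.92) and 2.2-fold (2.08 to 2.32) higher. Aspn was 2.13-fold (1.99 to 2.28) and 1.52-fold (1.39 to 1.66) higher, at 1037 (973 to 1104) and 516 (474 to 560.4). The Kera ratio of 15.5-fold (9.64 to 25.2) in E10-P56 rested on 43 UMIs in Clu-type cells, and it turned below 1 under a stricter gate.

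In E10-P56, 86 chemokine-type fibroblasts (Ccl2, Ccl7 and Cxcl5) and 60 activated-type fibroblasts (Tnc, Lrrc15 and Cthrc1) were also gated, where the adult pulse had 2 and 4. Both were deep, with medians of 17196.5 and 23544.5 UMIs against 5690 in fibroblasts of no subset. Chemokine-type cells were past 2-fold lower in 5 of 8 SLRP genes with enough UMIs, against 14.8% of all genes in either direction: Aspn by 5.32-fold (4.53 to 6.29), Ogn by 4.81-fold (4.31 to 5.38), Fmod by 3.39-fold (1.61 to 8.57), Podn by 3.24-fold (2.52 to 4.24) and Lum by 2.72-fold (2.54 to 2.92). Fmod there rested on 7 UMIs. In activated-type cells 4 of 8 were lower, Ogn by 5.25-fold (4.65 to 5.94), Podn by 5.23-fold (3.74 to 7.54), Dcn by 4.14-fold (4.01 to 4.28) and Prelp by 3.76-fold (3.11 to 4.59), while Bgn was 2.07-fold (1.99 to 2.16) higher, at 1897 (1828 to 1968), against 14.2% of all genes in either direction. Activated-type cells therefore combined the lowest Dcn level of the fibroblast subsets, 2489.9 (2411 to 2571), with the highest Bgn level.

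**Figure D4:**
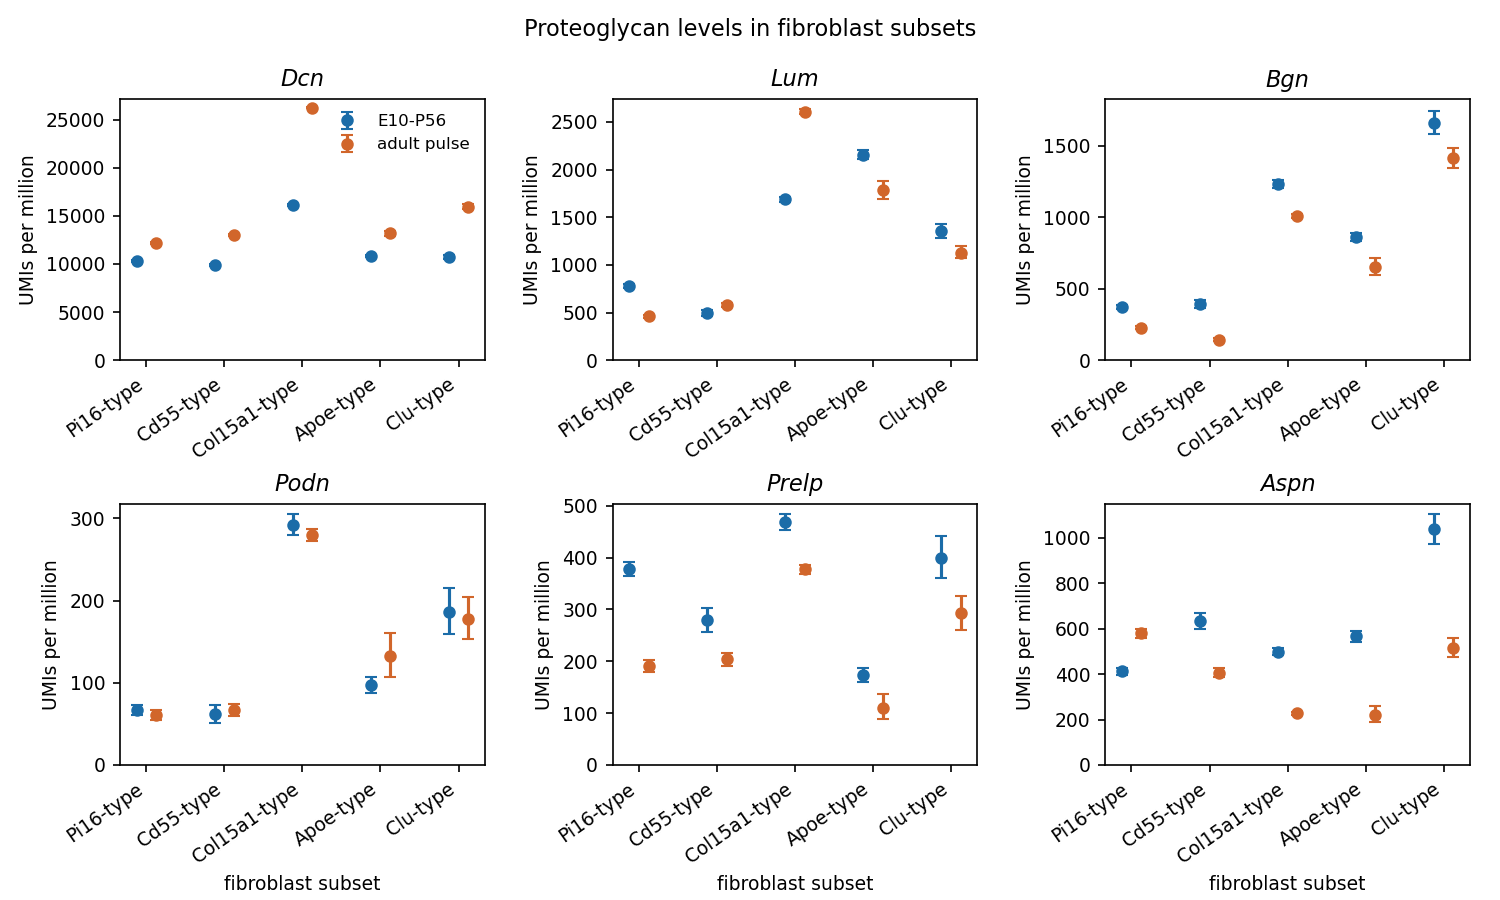
Levels of Dcn, Lum, Bgn, Podn, Prelp and Aspn (panels, each on its own axis from 0) in 5 fibroblast subsets of E10-P56 (blue) and the adult pulse (orange), in CPM with exact 95% Poisson intervals. Dcn, Bgn and Podn are higher in Col15a1-type than in Pi16-type cells in both libraries, and Aspn is higher in Pi16-type cells in the adult pulse alone.

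The nerve sheath contributed perineurial cells, which wrap nerve fascicles, and endoneurial-type cells, which lie among the nerve fibres. In perineurial cells 0 SLRP genes were past 2-fold higher than in fibroblasts of either library, where 10.3% and 11.5% of all genes were, and the same 3 were lower in both, Lum, Aspn and Podn, where 8.60% and 13.8% of all genes were. Lum was 316 (273 to 363) CPM in E10-P56 and 136 (86.4 to 205) for the adult pulse, 3.73-fold (3.24 to 4.31) and 11.1-fold (7.37 to 17.5) lower than in fibroblasts. Aspn was 140.4 (113 to 173) and 71.1 (36.8 to 124), 3.69-fold (2.99 to 4.6) and 5.07-fold (2.9 to 9.82) lower. Podn was 35.1 (22 to 53.1) and 29.6 (9.62 to 69.2), 3.49-fold (2.3 to 5.57) and 5.84-fold (2.5 to 18) lower.

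Dcn and Ogn, in contrast, were within 2-fold of the fibroblast level in perineurial cells. Dcn was 14639 (14341 to 14942) and 19577 (18915 to 20256), 1.35-fold (1.32 to 1.38) and 1.05-fold (1.01 to 1.08) the fibroblast level, and Ogn 1043 (965 to 1127) and 942 (802 to 1101). The Ogn ratio was 0.998-fold (0.923 to 1.08) in E10-P56, while in the adult pulse Ogn was 1.59-fold (1.37 to 1.88) lower than in fibroblasts. Kera and Chad had 0 UMIs in perineurial cells of either library, for which the exact interval ends at 5.89 CPM in E10-P56 and 21.9 CPM in the adult pulse.

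Endoneurial-type cells, gated with Sox9, Trf, Etv1, Osr2, Wif1 and Plxdc1, had the highest SLRP output by share, 2.89% of the UMIs of E10-P56 cells and 4.10% in the adult pulse. Past 2-fold higher than fibroblasts were 3 SLRP genes in E10-P56 (Dcn, Fmod and Chad), against 10.9% of all genes, and 4 in the adult pulse (Lum, Fmod, Kera and Chad), against 4.03%. Aspn was lower in both, against 12.7% and 5.0% of all genes. Dcn was 23898 (23112 to 24704) and 33740.4 (33184 to 34304), 2.2-fold (2.13 to 2.28) and 1.8-fold (1.77 to 1.83) the fibroblast level. Lum was 2332 (2091 to 2594) and 4558 (4354 to 4768), 1.98-fold (1.78 to 2.2) and 3.02-fold (2.88 to 3.16) the fibroblast level, with a UMI in 92.3% and 95.3% of thinned cells (96.2% and 100.0% unthinned). Perineurial and endoneurial-type cells thus stood on opposite sides of fibroblasts in Lum. Aspn was 3.29-fold (2.2 to 5.2) and 4.4-fold (3.15 to 6.36) lower.

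Values of the tenocyte genes in endoneurial-type cells rested on very few cells. All 70 Chad UMIs of E10-P56 came from 1 of the 26 cells, the 10 of the adult pulse from 2 of 64, and each of these 3 cells also had a UMI of the gate gene Wif1. The 20 Kera UMIs of the adult pulse came from 2 of 64 cells, where E10-P56 had 0. When populations were taken from clusters made without the SLRP genes instead of cell by cell, Fmod and Chad were below the fibroblast level in E10-P56 and Fmod, Kera and Chad were for the adult pulse. The gate itself was soft, with 17 cells just under and 4 just over its limit in E10-P56 and 82 and 22 for the adult pulse.

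Mural cells, the contractile cells of vessel walls, had a different set of SLRP transcripts. In pericytes, which cover capillaries, 1 SLRP gene, Aspn, was past 2-fold higher than in fibroblasts in E10-P56, against 12.2% of all genes, and again in the adult pulse, against 10.3%. The same 6 were lower in both libraries (Dcn, Lum, Bgn, Prelp, Ogn and Podn), against 11% and 9.90%. The median log2 ratio of the 10 genes was -1.95 and -2.47, beside 0.19 and 0.18 over all genes.

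Aspn was 1398 (1326 to 1472) CPM in E10-P56 pericytes, 2.7-fold (2.55 to 2.84) the fibroblast level, and 1509 (1427 to 1595) in the adult pulse, 4.18-fold (3.95 to 4.43) the fibroblast level. A UMI was present in 82.5% (77.5 to 86.8%) and 84.1% (78.8 to 88.6%) of thinned pericytes (95.7% and 91.8% unthinned), with medians of 3395 and 3442 UMIs per cell. By comparison 12.5% (5.55 to 23.2%) of E10-P56 Schwann cells, at a median of 4875 UMIs, had one (25% unthinned), and 0 of 45 adult pulse endothelial cells did after thinning, for which the exact interval ends at 7.87% (2.22% unthinned, at a median of 2853 UMIs). Aspn was also set against the summed UMIs of the fibroblast markers Pdgfra, Dpt, Clec3b, Mfap5 and Fbn1 in the same cells, leaving out Cd34 and Ly6a. It was then 56.2 and 107 times as high in pericytes as in fibroblasts. By the same measure Dcn in pericytes was at 0.862 and 0.776 of the fibroblast proportion. Fmod was at 34.6 and 15.7 times it, on 16 and 5 UMIs, and Aspn in tenocytes at 41.4 and 26.3 times it. The fibroblast gate selects for these same markers, and cells that passed both gates were set aside, so the gating itself raises such multiples. By how much was not tested, nor was the part of RNA from other cells in the pericyte counts.

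Dcn in pericytes, 449 (408 to 492) and 568 (518 to 621) CPM, was 24.2-fold (22.1 to 26.6) and 32.9-fold (30.1 to 36.1) lower than in fibroblasts. Its thinned shares there, 45.7% and 43.8% (73.6% and 74.2% unthinned), were under the 64.1% of E10-P56 Schwann cells and the 55.6% of adult pulse endothelial cells (85.9% and 73.3% unthinned). Single pericytes ran up to 12500.0 and 9991 CPM of Dcn, with medians of 357 and 420.2. With clusters in place of gates the pericyte level of Dcn was 1242 and 3648 CPM, still below that of gated fibroblasts. Lum was 16.5-fold (13.1 to 21) and 30.2-fold (22.3 to 41.9) lower and Ogn 16.4-fold (12.9 to 21.3) and 18.3-fold (14.5 to 23.5) lower. With clusters these levels rose as well. Lum went from 71.5 to 133 CPM in E10-P56 and from 50 to 222 in the adult pulse, and Ogn from 63.7 to 138 and from 82.1 to 312. Bgn and Prelp were lower by less, Bgn by 2.89-fold (2.59 to 3.24) and 4.77-fold (3.98 to 5.78) and Prelp by 5.62-fold (4.33 to 7.45) and 7.38-fold (5.2 to 10.9). Podn was 25- and 20.8-fold lower, on 5 and 7 pericyte UMIs, and with clusters its adult pulse level was 29.3 CPM in place of 8.33.

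SMCPs carried Bgn as well as Aspn. Of the 10 genes, 1 was past 2-fold higher than in fibroblasts in E10-P56 (Fmod), against 7.20% of all genes, and 0 in the adult pulse, against 10.6%; 5 were lower in both (Dcn, Lum, Prelp, Ogn and Podn), against 8.63% and 11.4%. Bgn was 992 (948 to 1037) CPM in E10-P56 SMCPs, 1.13-fold (1.07 to 1.18) the fibroblast level, and 483 (400.2 to 578) in the adult pulse, 0.733-fold (0.607 to 0.877). Thinned shares of SMCPs with a Bgn UMI were 72.8% (65.8 to 79.1%) and 45.5% (30.4 to 61.2%) (95.7% and 75% unthinned), above the 32.5% and 15.5% of pericytes (59.3% and 34.3% unthinned). Schwann cells of E10-P56 gave 25% (46.9% unthinned) and adult pulse endothelial cells 6.67% (17.8% unthinned).

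Aspn in SMCPs was 639 (604 to 676) and 674 (575 to 785), under the pericyte level of the same library. Dcn was 63.7-fold (57.2 to 71.1) and 66.8-fold (52.8 to 85.8) lower than in fibroblasts. Fmod in E10-P56 SMCPs, 27.2 (20.4 to 35.6) CPM on 53 UMIs, was 2.88-fold (2.12 to 3.84) the fibroblast level; the adult pulse had 3 UMIs and a ratio of 1.25-fold (0.258 to 3.69).

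VSMCs could be described in E10-P56 alone. There Fmod was past 2-fold higher than in fibroblasts, against 9.73% of all genes, and 5 SLRP genes were lower (Dcn, Lum, Prelp, Ogn and Podn), against 13.4%. Fmod stood at 97.4 (80.4 to 117) CPM, 10.3-fold (8.33 to 12.7) the fibroblast level, and 14.4% (9.02 to 21.3%) of thinned VSMCs had a UMI (41% unthinned, at a median of 7928 UMIs) against 1.56% of Schwann cells (4.69% unthinned). This was still far under the 4928 of tenocytes. Aspn and Bgn were within 2-fold of the fibroblast level, on opposite sides of it. Aspn was higher, at 688 (642 to 737) against 518 (512 to 525) in fibroblasts. Bgn was lower, at 568 (526 to 613) against 881 (873 to 889.6). Ogn, at 249.8 (222 to 280.0), was 4.18-fold (3.73 to 4.71) lower than in fibroblasts, a smaller gap than the 35.7-fold (27.6 to 47.2) of SMCPs, and Dcn was 52.1-fold (45.9 to 59.2) lower.

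**Figure D5:**
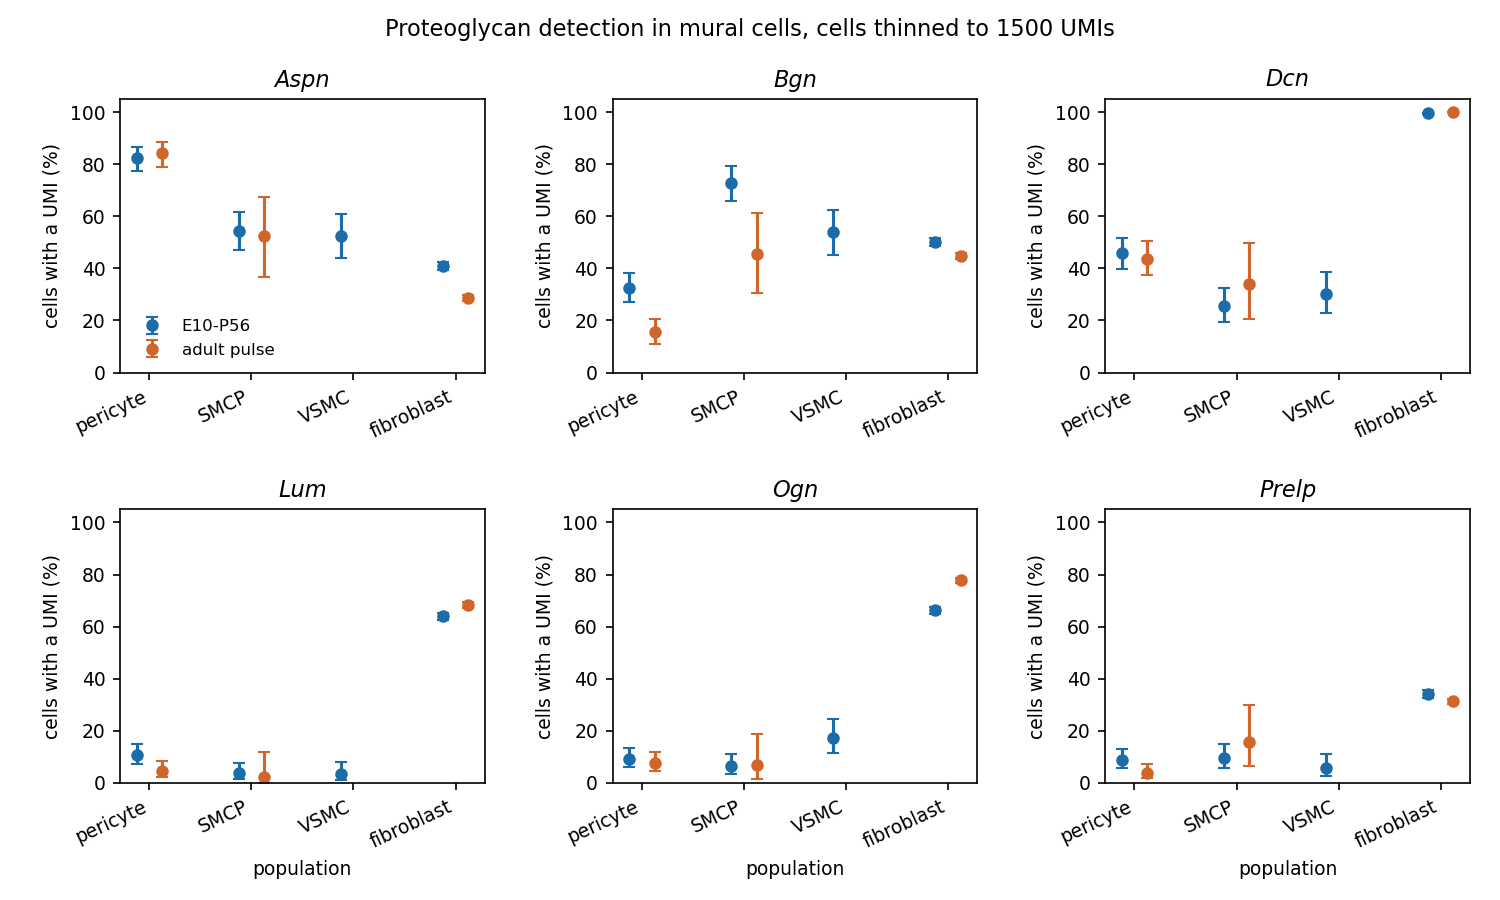
Share of cells with a UMI of Aspn, Bgn, Dcn, Lum, Ogn or Prelp (panels) after thinning to 1500 UMIs per cell, in pericytes, SMCPs, VSMCs and fibroblasts of E10-P56 (blue) and the adult pulse (orange, with no VSMC point), with exact 95% Clopper-Pearson intervals. Aspn is found in over 80% of pericytes in both libraries, and Bgn in more SMCPs than pericytes.

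The same populations were then set side by side between the libraries. In fibroblasts 0 of 10 SLRP genes were past 2-fold, against 2.77% of all genes. The Dcn level was 1.72-fold (1.72 to 1.73) higher in the adult pulse, Ogn 1.44-fold (1.42 to 1.45), Podn 1.42-fold (1.37 to 1.46) and Lum 1.28-fold (1.27 to 1.3) higher. Chad, at 1.45 and 4.5 CPM, had a ratio of 3.1-fold (2.37 to 4.11) without the pseudocount. Aspn was 1.44-fold (1.41 to 1.46) and Bgn 1.34-fold (1.32 to 1.36) lower. The fibroblasts of the 2 libraries lay mostly in different clusters of the joint map, as given above for Pi16-type and Col15a1-type cells, and Apoe-type cells in clusters of 672 E10-P56 and 20 adult pulse cells and of 38 and 604.

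Among tenocytes, Aspn was the 1 SLRP gene of 10 past 2-fold between libraries, against 6.79% of all genes. It was 3.37-fold (3.17 to 3.58) lower in the adult pulse, and beside it Scx was at 856 CPM there and 6554 in E10-P56. Dcn was 1.78-fold (1.74 to 1.82) higher in adult pulse tenocytes, close to its ratio in fibroblasts, and Fmod, Kera, Ogn, Bgn and Chad were within 1.22-fold. In pericytes Bgn was past 2-fold, 2.21-fold (1.78 to 2.75) lower in the adult pulse, 1 of 6 with enough UMIs against 2.69% of all genes, while Aspn was at a ratio of 1.08-fold (1.0 to 1.17). In SMCPs Bgn was 2.05-fold (1.71 to 2.49) lower and Ogn 3.75-fold (2.28 to 6.02) higher in the adult pulse, 2 of 7 with enough UMIs against 11.1% of all genes; the adult pulse had 44 SMCPs and 27 Ogn UMIs in them.

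Of the nerve sheath cells, perineurial cells had 1 of 6 SLRP genes with enough UMIs past 2-fold between libraries, against 9.92% of all genes. This was Lum, 2.32-fold (1.5 to 3.74) lower in the adult pulse on 23 UMIs. Endoneurial-type cells had 1 of 8, against 9.59%, and this was Chad, whose E10-P56 level came from 1 cell. Lum in endoneurial-type cells was 1.95-fold (1.74 to 2.2) higher in the adult pulse, the opposite side from perineurial cells.

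Several of these genes lie beside each other in the genome. On GRCm38 in the GENCODE M21 annotation, Dcn (ENSMUSG00000019929, chromosome 10, 97479609 to 97518143), Lum (ENSMUSG00000036446, 97565128 to 97572703) and Kera (ENSMUSG00000019932, 97606879 to 97613692) follow each other on the plus strand, 47 kb and 34.2 kb apart. Aspn (ENSMUSG00000021388, chromosome 13, 49544443 to 49567565) and Ogn (ENSMUSG00000021390, 49608046 to 49624501) flank Omd, and Prelp (ENSMUSG00000041577, chromosome 1, 133910304 to 133921414, minus strand) lies 115.8 kb from Fmod (ENSMUSG00000041559, 134037254 to 134048277, plus strand). Podn (ENSMUSG00000028600, 108014791 to 108096445) is on chromosome 4, Chad (ENSMUSG00000039084, 94565047 to 94569127) on chromosome 11 and Bgn (ENSMUSG00000031375, 73483602 to 73495933) on chromosome X.

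Neighbours did not share 1 pattern. Over 15 points, each a population of 1 library, the Pearson correlation of log2 levels was 0.89 for Dcn and Lum but 0.23 for Lum and Kera, 0.58 for Prelp and Fmod and 0.04 for Ogn and Aspn. Genes on different chromosomes reached like Pearson values, 0.88 for Fmod with both Kera and Chad and 0.85 for Lum with Podn. By ranks they were less alike: Spearman's rho was 0.13 for Fmod with Kera, 0.55 for Fmod with Chad and 0.79 for Lum with Podn, beside 0.90 for Dcn with Lum. The points share libraries, depth and the droplets they came from, so these are descriptions.

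By the same measure over 7478 genes, the 3 genes most like each SLRP gene differed from 1 to the next. Clmp (0.99), Myoc and F3 were most like Dcn, Pdpn (0.95), Dclk1 and Abca9 most like Lum, and Plekha5 (0.95), Antxr2 and Ptges most like Podn. Scube2 (0.94), Edil3 and Tceal3 were most like Fmod, while Cilp2 (0.97), Col22a1 and Slc40a1 led for Kera and Col11a1 (0.99), Edil3 and Wif1 for Chad; of these Cilp2, Col22a1, Col11a1 and Wif1 are gate markers. Bgn was closest to Mettl1 (0.92), Txndc5 and Maged1, Prelp to Mxra8 (0.93), Spock2 and Mettl1, Ogn to Zfhx4 (0.96), Abi3bp and Il11ra1, and Aspn to Arhgap6 (0.91), Asph and Vasn. For Fmod and Kera Spearman's rho was lower, 0.64 for Fmod with Scube2 and 0.66 for Kera with Cilp2, while for Chad with Col11a1 it was 0.92. Most points of Kera and Chad were near 0.

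Of 8 further genes of the family, Ecm2 and Omd were the ones with clear levels. Ecm2, which lies 11.7 kb from Aspn, was 775 and 634 CPM in perineurial cells, 507 and 546 in pericytes, 435 and 452 in tenocytes and 129 and 155 in fibroblasts. Omd, between Aspn and Ogn, was 195 and 261 in perineurial cells, 112 and 92.9 in tenocytes and 19.5 and 40.3 in fibroblasts, so both relatives were highest in perineurial cells, where Aspn was low. Optc, beside Prelp, had 20 UMIs in E10-P56 VSMCs, 16.9 CPM. Chadl stood at 82.1 in endoneurial-type cells of E10-P56, on 12 UMIs, and at 43.8 in Schwann cells of that library. In adult pulse endoneurial-type cells Chadl was 9.65 CPM on 4 UMIs, beside 8.26 in fibroblasts. Epyc, Nyx, Tsku and Podnl1 did not exceed 22.3 CPM in any of the 7 main populations or in E10-P56 Schwann cells.

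Genes that build the sugar chains, and the partners of SLRPs, were counted between the same populations. Between tenocytes and fibroblasts none of the 6 genes of the linker that joins chains to the core protein was past 2-fold in either library, where 6.58% and 4.91% of all genes were higher and 6.77% and 7.43% lower. Of 12 genes with enough UMIs of chondroitin and dermatan sulphate synthesis, 1 was higher (Dsel, 2.26-fold) and 1 lower (Csgalnact1, 3.66-fold) in E10-P56 and 0 for the adult pulse. Of 5 such genes of keratan sulphate synthesis, the chains that Fmod, Lum and Kera can carry, 0 were higher in tenocytes and 2 were lower in both libraries, B4galt1 by 3.45- and 4.19-fold and Chst1 by 3.78- and 7.03-fold. In pericytes 3 and 2 of the 5 keratan sulphate genes were higher than in fibroblasts, against 12.2% and 10.3% of all genes, and 1 was lower in both, against 11% and 9.90%. The sulphotransferases Chst2 and Chst1 were higher, 4.05- and 3.28-fold in E10-P56 and 3.69- and 3.23-fold for the adult pulse, and B4galt1 was lower, 4.47- and 3.58-fold.

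Of the 7 fibrillar collagen genes that SLRPs bind as proteins, 1 was higher and 2 lower in E10-P56 tenocytes than in fibroblasts, and 3 were higher and 3 lower in the adult pulse. Col11a1, also a gate marker, led both, at 331- and 309-fold, Col1a1 was 3.52-fold higher in the adult pulse, and Col3a1 was 5.23- and 4.47-fold lower. The shares of all genes to read these counts against are those just given for tenocytes. Adamts5, a protease that cleaves proteoglycans, was 7.83- and 22.1-fold lower in tenocytes and led the 3 of 11 receptors and proteases that were lower in either library; 0 were higher. In pericytes 5 and 6 of the 7 collagens were lower, against 11% and 9.90% of all genes, and 0 were higher, against 12.2% and 10.3%. Between the libraries' fibroblasts Col1a1 and Col3a1 were the 2 of 7 past 2-fold, against 2.77% of all genes, 2.28- and 2.24-fold lower in the adult pulse, while the Dcn level was higher there.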

How the data were processed

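Droplet-based 3′ single-cell RNA sequencing was performed by the authors on sorted tdTomato+ muscle cells. The deposited files hold counts: raw UMI counts per gene and barcode that the authors made with Cell Ranger 5.0.0 (E10-P56) or 3.0.2 (adult pulse) on a modified mm10 genome. The labels name 2 kit versions without assigning them, and the methods name the later one for adult muscle.

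Barcodes under 1500 UMIs or over 10% mitochondrial UMIs were left out. Doublets were not removed in the main analysis, but cells that passed more than 1 gate were set aside (262 in E10-P56 and 162 of the adult pulse), and leaving out the top 5% of doublet scores was an alternative. A cell needed UMIs of 4 of 7 tenocyte, 5 of 7 fibroblast, 4 of 7 perineurial, 5 of 7 measured mural, 4 of 6 Schwann or 4 of 6 endothelial markers; endoneurial-type cells needed 3 of 6 markers and 1000 CPM of them, and took precedence over fibroblasts. Pericytes needed 5 of 6, VSMCs 4 of 6 and SMCPs 3 of 6 markers, and cells with 3 of 6 cycling markers were left out.

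The SLRP genes, the gene lists and the markers were chosen with earlier results of these data known; subset markers came from an earlier description of these data and from the study, and gate limits were set after seeing the data. All 10 genes are reported; of each list the text gives counts past 2-fold and names from the 4 largest ratios, and of all genes the 3 with the highest Pearson correlation. In data simulated for tenocytes against fibroblasts, of 200 genes altered 4-fold 98.5% (E10-P56, 12198 genes) and 100% (adult pulse, 12602 genes) were past 2-fold, and of 200 altered 1.5-fold 1% and 0%. The simulated noise was that of counting alone. Altered genes were drawn from those with fibroblast levels above the levels of Fmod, Kera and Chad there, so this recovery does not cover these genes.

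Other cell filters, gates, clusters, scalings and pseudocounts were tried as alternatives. Python 3.11.15 was used with numpy 2.4.6, scipy 1.17.1, pandas 2.3.3, scanpy 1.11.5, scikit-learn 1.9.0, python-igraph 0.11.9 and matplotlib 3.10.9.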

Additional observations from a re-analysis of the deposited data

Results flagged for a closer look

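In 4 comparisons a gene lay above the reference in 1 library and below it in the other, with counting intervals that exclude a ratio of 1; none of these differences between libraries was tested. Aspn in Col15a1-type against Pi16-type fibroblasts had a ratio of 1.21 in E10-P56 and 0.392 for the adult pulse. Bgn in SMCPs against fibroblasts had ratios of 1.13 and 0.733 in the same order. Dcn in Clu-type fibroblasts against those of no subset had ratios of 1.04 and 0.896, both close to 1. Ogn in Col22a1+ against Col22a1- tenocytes had ratios of 1.11 and 0.510.

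SLRP transcripts were also present in the barcodes left out of every comparison. Summed over the 10 genes, they stood at 11411 CPM in E10-P56 barcodes with under 1500 UMIs and at 13379 CPM in those of the adult pulse. In barcodes over the mitochondrial limit the levels were 3421 and 7499.6 CPM.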

How the results depend on the processing

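No paired analysis was possible because each group is 1 library, and for the same reason no replicate could be left out. Counts of SLRP genes were those past 2-fold, those highest in tenocytes and those found in most tenocytes. They stayed within 1.5 times the reported count under 227 of 248 alternatives, and every count that moved was one past 2-fold. Of the log2 ratios, 1875 stayed within a span of the counting interval's width around the reported ratio, or within 1 unit where there was no interval. A further 376 moved by more and 9 turned direction. The tenocyte against fibroblast counts of SLRP genes were not among those that moved, also without cells holding Acan or Col2a1. Of 800 alternative values of levels, 255 lay outside the counting interval and 79 of these differed by over 1.5 times, 38 when abundant genes were left out of the total and 22 with clusters. Of shares, 72 of 80 alternative shares of tenocytes and fibroblasts lay outside the interval. At 3000 UMIs in place of 1500 the share of E10-P56 fibroblasts was 52.3% for 34.2% with Prelp and 28.1% for 17.6% with Podn. Pericytes were not part of these 80, and at 3000 UMIs the share of E10-P56 pericytes with Dcn was 64% for 45.7%. The cause of each move was not tested. Small populations (26 endoneurial-type and 33 perineurial cells) and genes with few UMIs limit the precision.

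With a pseudocount of 1 CPM, 5 SLRP genes in place of 3 were past 2-fold between perineurial cells and fibroblasts in both libraries, and 1 in place of 0 between the fibroblasts of the libraries. With clusters made without the SLRP genes, the endoneurial-type count was 2 in both libraries, in place of 4 and 5. There the log2 ratio turned to -0.23 for Fmod and -0.53 for Chad in E10-P56, and to -0.22 for Fmod, -0.38 for Kera and -0.32 for Chad in the adult pulse, while Chad between the libraries turned to 0.23. With a stricter gate, adult pulse Kera and Chad turned to -0.55 and -0.78, and in Clu-type fibroblasts of E10-P56 Kera turned to -1.06 with 6 SLRP genes past 2-fold in place of 2. The adult pulse Clu-type count of 1 was 2 with a UMI minimum of 3000 and 2 with a mitochondrial limit of 5%.

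Between the libraries, the perineurial count of 1 was 0 with a mitochondrial limit of 5%, 2 with one of 20%, 2 with clusters and 0 with thinned cells. The endoneurial-type count of 1 was 2 without high doublet scores, 2 with clusters, 3 when mitochondrial, ribosomal protein and the 20 most abundant genes were left out of the total, 2 with no minimum of UMIs and 0 with thinned cells. The pericyte count of 1 was 3 with clusters. The SMCP count of 2 was 1 with a mitochondrial limit of 20%, 1 without those abundant genes and 1 with thinned cells.

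The number of all genes past 2-fold moved by over 1.5 times in 28 cases, each given here with the reported number after it. With a pseudocount of 1 CPM it was 2808 for 1636 (tenocyte in E10-P56), 3798 for 2309 (perineurial in E10-P56), 5055 for 2881 (endoneurial-type in E10-P56), 4401 for 2837 (pericyte in E10-P56), 3043 for 1946 (SMCP in E10-P56), 4296 for 2853 (VSMC in E10-P56), 2482 for 1567 (tenocyte in the adult pulse), 5466 for 3175 (perineurial in the adult pulse), 2852 for 1132 (endoneurial-type in the adult pulse), 4198 for 2549 (pericyte in the adult pulse), 4916 for 2765 (SMCP in the adult pulse), 875 for 372 (between libraries fibroblast) and 822 for 536 (between libraries tenocyte). With a stricter gate it was 2767 for 1132 (endoneurial-type in the adult pulse) and 1282 for 355 (Clu-type fibroblast in E10-P56). With no minimum of UMIs it was 1212 for 178 (Col22a1+ tenocyte in E10-P56), 772 for 454 (Col22a1+ tenocyte in the adult pulse), 2921 for 287 (between libraries perineurial), 3380 for 165 (between libraries endoneurial-type), 612 for 156 (between libraries pericyte) and 1956 for 659 (between libraries SMCP). With cells thinned to 1500 UMIs it was 307 for 536 (between libraries tenocyte), 75 for 287 (between libraries perineurial), 39 for 165 (between libraries endoneurial-type), 89 for 156 (between libraries pericyte) and 170 for 659 (between libraries SMCP). With clusters it was 481 for 287 (between libraries perineurial) and 328 for 165 (between libraries endoneurial-type).

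No value was obtained with a UMI minimum of 3000 or a stricter gate for endoneurial-type cells of E10-P56, with a stricter gate for adult pulse SMCPs and Clu-type fibroblasts, the same between the libraries for endoneurial-type cells and SMCPs, or with clusters for Clu-type, chemokine-type and activated-type fibroblasts.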

Other observations

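A cluster with the highest Acan level, made without the SLRP genes and chosen after its values were seen, held 58 E10-P56 and 73 adult pulse cells with medians of 6641 and 9630 UMIs. Its leading genes were Bglap2, Bglap, Cytl1, Mmp13 and Spp1, and it was given no cell type name. By the gates 25 and 14 of its cells were tenocytes and 8 and 30 fibroblasts. Chad stood there at 1520.5 (1405 to 1643) and 809 (748 to 874) CPM, and Aspn at 2696 (2542 to 2857) and 1436 (1354 to 1521) CPM. Fmod was 1162 (1061 to 1269) and 697 (640.4 to 758) CPM, under its tenocyte level in both libraries. Kera rested on 31 and 2 UMIs, so Chad and Kera parted in these cells. The comparison with other cells was not tested.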
